A study of Rattus norvegicus with 16 samples.

Results

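The nuclear-encoded genes of the mitochondrial respiratory chain and of its assembly formed a list of 39 genes, chosen by name and not by any measured value. Of these, 35 were measured, among 17245 genes tested on the arrays. They were 17 of the 18 listed subunits of complex I, its assembly factor Ndufaf1, all 4 subunits of complex II, 4 listed subunits of complex III, 4 nuclear-encoded subunits of complex IV, 4 of 7 complex IV assembly factors, and Atp5f1b, the catalytic beta subunit of ATP synthase. The complex I subunit Ndufa10 and the complex IV assembly factor Surf1 shared array rows with neighbouring gene names, and no row named Cox10 or Sco2 alone, so these 4 genes were not analysed here. No filter on low values was applied, and all 35 measured genes entered every test.

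RNA came from cells that stuck to commercially pure titanium implants in the tibiae of 8 male Sprague Dawley rats of 326 to 350 g, under ketamine and xylazine anaesthesia with local lidocaine and epinephrine, and with ketoprofen after surgery. Each rat carried 2 implants of the AT-I surface, which has nanoscale features, in one tibia and 2 of the AT-II surface, which is microrough without them, in the other, giving 32 implants in all. Implants were taken out at day 2 or day 4, with 4 rats per time point, and rinsed before lysis, so a sample holds every cell type that adhered. Each surface and day had 4 of the 16 Affymetrix Rat Gene 1.1 ST arrays. Every group had the same surgery and metal, and no unoperated bone was among the samples analysed here. Replicate numbers could not be tied to single rats, so p-values between surfaces take no account of the rat.

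The respiratory chain lies in the inner mitochondrial membrane. Complex I takes electrons from NADH and complex II from succinate, complex III hands them from ubiquinol to cytochrome c, and complex IV passes them to oxygen, while ATP synthase uses the resulting proton gradient to make ATP. Most subunits are encoded in the nucleus, and assembly factors build the complexes and load their copper, haem and iron-sulphur groups without staying in the finished enzyme. In bone, osteoclasts are rich in mitochondria, osteoblasts use both glycolysis and respiration, and neutrophils rely largely on glycolysis.

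Promoters of 4 genes are printed because these genes had the smallest p between the surfaces at day 2 (Sco1 and Ndufs1) or between the days on AT-I (Cox5b and Uqcrc1). They are RefSeq windows on the GRCr8 rat assembly, from 250 bases before to 50 after the gene start, in the direction of transcription, and such windows were at hand for 32 of the 35 measured genes. Capitals mark matches on either strand to 3 motifs of nuclear factors known for respiratory genes: GCGCA and GCGC with any base between them for NRF-1, CCGGAAG for the ETS family (which includes GABP, also called NRF-2) and AAGATGGCG for YY1. In the order below, the windows are chr10:52243414-52243713 on the plus strand, chr9:72073556-72073855 on the minus strand, chr9:46417587-46417886 on the plus strand and chr8:118467973-118468272 on the plus strand.
Sco1: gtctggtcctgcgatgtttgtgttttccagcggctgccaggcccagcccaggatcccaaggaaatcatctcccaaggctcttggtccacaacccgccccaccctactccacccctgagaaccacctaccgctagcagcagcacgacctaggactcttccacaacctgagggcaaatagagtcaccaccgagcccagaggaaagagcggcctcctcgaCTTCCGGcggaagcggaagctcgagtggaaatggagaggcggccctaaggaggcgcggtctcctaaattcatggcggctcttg
Ndufs1: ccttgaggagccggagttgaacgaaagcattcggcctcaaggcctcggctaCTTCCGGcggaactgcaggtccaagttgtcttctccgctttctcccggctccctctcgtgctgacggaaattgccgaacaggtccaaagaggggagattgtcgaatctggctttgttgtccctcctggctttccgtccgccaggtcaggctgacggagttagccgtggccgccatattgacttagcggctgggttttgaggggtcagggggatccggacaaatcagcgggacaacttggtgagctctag
Cox5b: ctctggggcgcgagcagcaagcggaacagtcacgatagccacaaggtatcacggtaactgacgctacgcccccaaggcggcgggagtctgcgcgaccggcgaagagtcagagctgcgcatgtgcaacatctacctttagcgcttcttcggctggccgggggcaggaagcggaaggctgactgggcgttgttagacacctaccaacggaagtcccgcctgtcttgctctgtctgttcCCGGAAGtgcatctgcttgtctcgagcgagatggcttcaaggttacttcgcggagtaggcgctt
Uqcrc1: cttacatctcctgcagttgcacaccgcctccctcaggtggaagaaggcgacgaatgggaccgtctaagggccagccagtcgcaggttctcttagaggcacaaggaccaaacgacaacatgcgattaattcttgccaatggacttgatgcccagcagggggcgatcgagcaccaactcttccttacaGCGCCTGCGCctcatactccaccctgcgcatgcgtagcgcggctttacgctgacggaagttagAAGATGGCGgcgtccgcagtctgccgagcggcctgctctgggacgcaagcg

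Sco1, Ndufs1 and Cox5b each held an ETS match, beginning at bases 218, 52 and 237 of the window, and Uqcrc1 held an NRF-1 match at base 187 and a YY1 match at base 250. Over the 32 windows, the ETS motif was in 12 (37.5%), against 8.75% of 33469 windows in all and 10.7% of 21851 of protein-coding genes. The YY1 motif was in 5 (15.6%), against 1.73% and 2.07%, and the NRF-1 motif in 5 (15.6%), against 4.25% and 5.67%. These are matches of letters, which are descriptions and not shown binding sites, and no measurement of binding was made in these samples.

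Values are log2 expression as processed by the submitters, and differences below are in log2 units with the standard error (SE) of the fit. Replicates 2 and 3 of AT-II day 2 were closer to each other than any other of the 120 pairs (r = 0.9963 over genes, against at most 0.9938). They were averaged and counted as 1 sample, so 15 samples entered each test and AT-II day 2 had n = 3. Arrays differed in spread: the interquartile range over all genes was 2.48 to 2.98 on AT-I day 2 and 3.05 to 3.41 on AT-II day 2. At day 2, the median difference of all genes (AT-I minus AT-II) ran from 0.28 among the dimmest 25% of genes to -0.29 between the 50th and 75th percentile of level and -0.23 among the brightest 25%. The last of these classes held 30 of the 35 respiratory chain genes, and the one before it the other 5. The median of 10 osteoblast markers was 6.67 to 8.23 over the day 2 samples and 10.07 to 11.03 over the day 4 samples. That of 8 neutrophil markers was 10.88 to 12.24 and 10.26 to 11.71, and that of 4 osteoclast markers 5.30 to 7.10 and 7.29 to 8.58. Of these osteoclast markers 2 rose on AT-I, where 8.84% of all genes were called higher. Without AT-I day 4 replicate 4 the count was 0, and 0 passed on AT-II. The part of these cells in the values below was not tested. In such mixed samples, fewer cells of a type and less RNA per cell cannot be told apart.

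The respiratory chain genes were bright and steady. Their median level lay at the 90.9 percentile of all genes, and 30 of the 35 were in the brightest 25%. Over the 15 samples, 34 of the 35 genes (97.1%) stayed within 1 log2 unit, which is 2-fold, against 55.1% of all genes and 68.5% of the brightest 25%. The exception was Ndufaf1, an assembly factor of complex I, with a range of 1.05. The median standard deviation (SD) within groups was 0.16 for the list, 0.23 for all genes and 0.19 for the brightest 25%.

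The steadiest genes were Cyc1, the cytochrome c1 of complex III, and Atp5f1b, each with a range of 0.38. Cyc1 had 9.16, 9.48, 9.29 and 9.42 on AT-I day 2, 9.46, 9.38, 9.36 and 9.42 on AT-II day 2, 9.18, 9.48, 9.10 and 9.44 on AT-I day 4, and 9.20, 9.37, 9.39 and 9.45 on AT-II day 4. The 4 groups overlapped throughout, and the group means lay between 9.30 and 9.42. Atp5f1b group means lay between 11.67 and 11.87. Next came Cox5a, a nuclear-encoded subunit of complex IV, with a range of 0.44, and Ndufb6, a membrane-arm subunit of complex I, with 0.46. The widest ranges after Ndufaf1 were those of Uqcrc1, a core protein of complex III, at 0.90, and Ndufb8, another membrane-arm subunit of complex I, at 0.88.

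Arrays of a group often differed in the same sense across many of these genes. On AT-I day 2, replicate 1 had the lowest value of its group for 23 of the 35 genes and replicate 2 the highest for 18. On AT-I day 4, replicate 3 was lowest for 16 and replicate 4 highest for 23. On AT-II day 4, replicate 1 was lowest for 17 and highest for 0, and replicate 4 was highest for 17. The median deviation from the group mean over the list was -0.18 in AT-I day 2 replicate 1 and 0.14 in AT-I day 4 replicate 4, against -0.01 and 0.01 over all genes. Some cell type markers were low in AT-I day 2 replicate 1 too. Its macrophage marker median was 8.75 against 9.78 to 9.90 in the other arrays of its group, its osteoclast median 5.30 against 6.27 to 7.06, and its osteoblast median 6.67 against 7.51 to 8.14. Its T cell, adipocyte and chondrocyte medians were also the lowest of the group. Its neutrophil, erythroid, B cell, skeletal muscle and megakaryocyte medians lay within the range of the other arrays. The endothelial median was the highest, at 7.92 against 7.41 to 7.84. The median of 235 smell, pheromone and taste receptor genes, a check of the low end, was 5.55 against 4.63 to 5.28. The part of cell types or of the low end in the shift was not tested. For comparison, the median absolute difference of the 35 genes between groups was 0.06 to 0.13 in the comparisons of surfaces and of days.

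**Figure D1:**
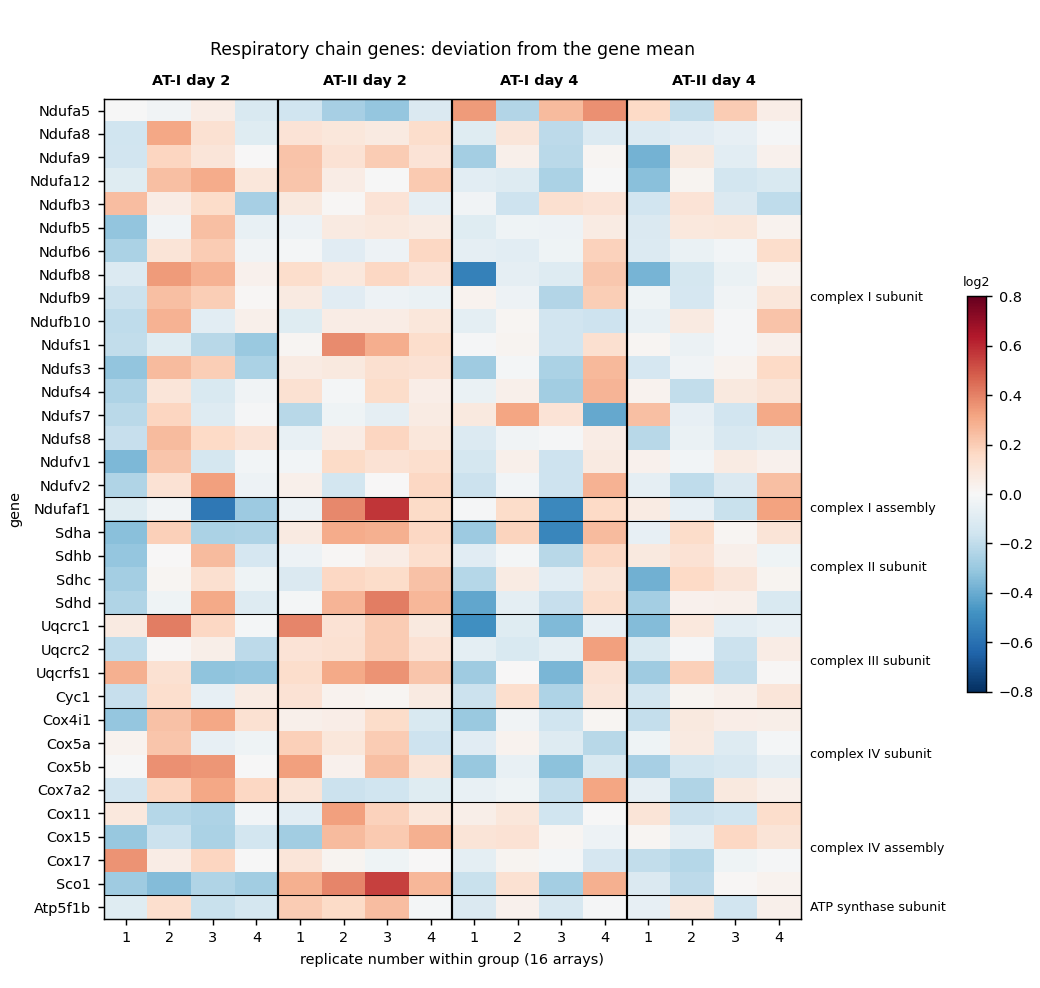
Deviation of each of the 35 respiratory chain genes (rows, grouped by complex) from its mean over 16 arrays, in log2 units, by array (columns, replicate number within each group). Most cells are pale, Sco1 is below its mean on all AT-I day 2 arrays and above it on all AT-II day 2 arrays, and several columns, such as AT-I day 2 replicate 1, share 1 sign over many rows.

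The surfaces were first compared at day 2, which asks whether nanoscale features changed expression in early adherent cells. With limma, 0 of the 35 respiratory chain genes passed an adjusted p under 0.05, and the share called over all 17245 genes was 0%. At an unadjusted p under 0.05, 0 were higher and 4 were lower on AT-I (11.4%), against 27.3% of all genes (12.5% higher and 14.8% lower). The list had a median difference of -0.07, with single genes from -0.63 to 0.18. All genes had a median of -0.09, which spans classes of level with medians of either sign, as given above. For 28 of the 35 (80.0%) the 95% interval of the difference lay within 0.5 log2 units of zero, a 1.41-fold change, against 25.9% of all genes and 32.9% of the brightest 25%.

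The largest estimate was that of Sco1, a copper chaperone that helps to load copper into cytochrome c oxidase. Sco1 had 6.56, 6.50, 6.60 and 6.57 on AT-I and 7.13, 7.23, 7.39 and 7.11 on AT-II. All AT-I arrays were below all AT-II arrays, and the AT-I values were close together. The difference was -0.63 ± 0.14 (SE, n = 4 and 3), 1.54-fold, with a 95% interval from -0.91 to -0.34, and it ranked 20 of 17245 by p, but the adjusted p was 0.128. Counting all 16 arrays gave -0.66 (adjusted p = 0.04), and 2193 genes (12.7%) were then called, among them Sco1 and Ndufs1 but no other gene of the list. Array weights called 3713 genes (21.5%) and 4 of the list. With the interquartile range of each array as a covariate, Sco1 had -0.42 (adjusted p = 0.996).

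Ndufs1, the largest iron-sulphur subunit of complex I, had 9.06, 9.16, 9.04 and 8.96 on AT-I and 9.28, 9.64, 9.55 and 9.40 on AT-II. Its groups did not overlap either, and the difference was -0.37 ± 0.11 (adjusted p = 0.128). That value was -0.41 (adjusted p = 0.04) with all 16 arrays, -0.20 with the array spread as a covariate and -0.16 after another quantile normalisation. Uqcrc2, the other core protein of complex III, was the third gene without overlap, at -0.22 ± 0.13 (adjusted p = 0.263). Groups without overlap thus numbered 3 of 35, all lower on AT-I, against 20.2% of all genes (11.3% lower and 8.83% higher). The part of the array spread in these differences was not tested beyond the values given here.

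Subunits were next read by complex, and the medians of complexes I to IV lay between -0.17 and 0.04. The 17 complex I subunits had a median of -0.02 and lay between -0.37 and 0.16, with Ndufa5, of the peripheral arm, at the upper end (0.16 ± 0.15). The 4 complex II subunits were all below zero, with a median of -0.17. Sdha, the flavoprotein subunit, had -0.34 ± 0.18 (adjusted p = 0.225), Sdhd, a membrane anchor, -0.21 ± 0.16, and Sdhc and Sdhb -0.13 and -0.09. In complex III, Uqcrfs1, the Rieske iron-sulphur protein, had -0.29 ± 0.17, Cyc1 -0.08 and Uqcrc1 -0.05. The complex IV subunits Cox4i1, Cox5a, Cox5b and Cox7a2 lay between -0.02 and 0.18, and Atp5f1b had -0.20 ± 0.12.

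Estimates for assembly factors were lower than those for subunits at day 2. The 5 assembly factors had a median of -0.30 and the 30 subunits -0.06. Ndufaf1 had 6.84, 6.91, 6.37 and 6.65 on AT-I and 6.90, 7.33, 7.51 and 7.10 on AT-II, a difference of -0.44 ± 0.19 (adjusted p = 0.164), with 1 AT-I array just above the lowest AT-II array. Cox15, which makes haem a, had -0.30 ± 0.13 (adjusted p = 0.174), Cox11, which delivers copper to the Cox1 subunit, -0.19 ± 0.13, and Cox17, the chaperone that supplies Sco1 and Cox11 with copper, 0.12 ± 0.11. Ndufaf1, Cox11, Cox15 and Sco1 also lay between the 50th and 75th percentile of level, where all genes had a median of -0.29. Among 35 further assembly factors the median was -0.24, and among 46 further subunits 0.03, with 0 called in either set. The difference between assembly factors and subunits was not tested.

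**Figure D2:**
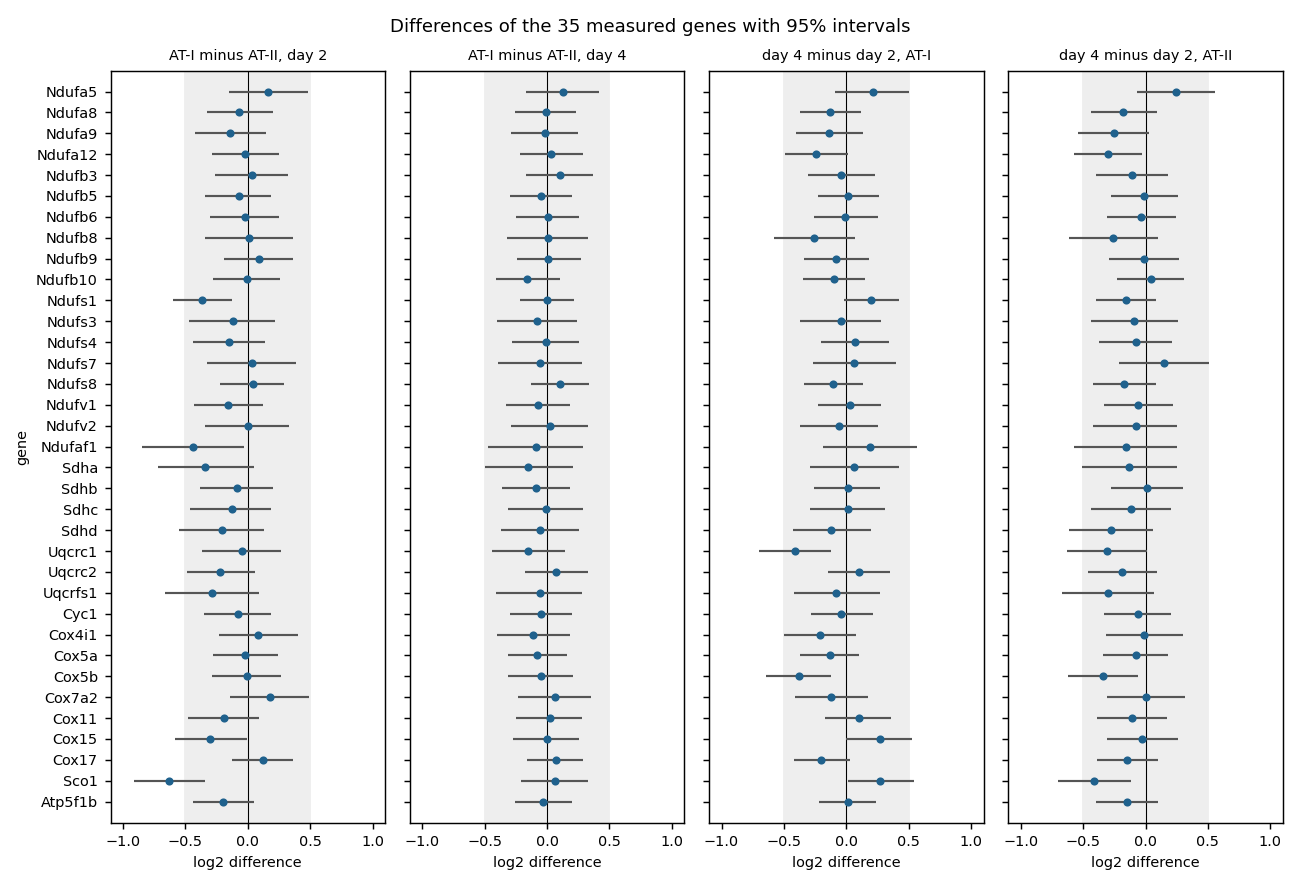
Differences of the 35 measured genes (rows) in 4 comparisons (panels), in log2 units, with 95% intervals from the fit over 15 samples; the grey band marks 0.5 log2 units either side of zero. Intervals at day 4 between the surfaces lie within the band for all 35 genes, and Sco1 at day 2 lies farthest from zero, at -0.63.

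At day 4 the estimates between the surfaces lay closer to zero. With limma, 0 of 35 genes passed, against 0% of all genes, and 0 of 35 had an unadjusted p under 0.05, against 3.98% of all genes (2.54% higher and 1.44% lower). The median was -0.01 (all genes -0.03) and single genes lay between -0.16 and 0.13. For 35 of 35 genes (100%) the 95% interval lay within 0.5 log2 units of zero, against 55.4% of all genes and 71.6% of the brightest 25%. In 0 of 35 genes were the groups free of overlap, against 2.2% of all genes (0.789% higher and 1.41% lower). The count of 0 held under every other setting run.

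The smallest p belonged to Ndufb10, a complex I membrane-arm subunit, with 9.28, 9.37, 9.21 and 9.20 on AT-I and 9.30, 9.44, 9.35 and 9.59 on AT-II. Its difference was -0.16 ± 0.12 (adjusted p = 0.913), and the groups overlapped. Uqcrc1 had -0.15 ± 0.14, Sdha -0.15 ± 0.17 and Cox4i1, a regulatory subunit of complex IV, -0.11 ± 0.14. On the other side of zero were Ndufa5 at 0.13 ± 0.14, Ndufs8, an iron-sulphur subunit of complex I, at 0.10 ± 0.11, and Ndufb3 at 0.10 ± 0.13. Sco1, which was low on AT-I at day 2, had 6.66, 6.96, 6.57 and 7.13 on AT-I and 6.72, 6.63, 6.85 and 6.87 on AT-II, so the groups overlapped fully and the difference was 0.06 ± 0.13. Ndufs1 had group means of 9.26 on both surfaces.

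Day 4 was then compared with day 2 on each surface. These comparisons use the same day 2 groups as the surface comparison above, so their values are not independent of it. On AT-I, limma called 0 of 35 respiratory chain genes, whereas 11.5% of all genes were called (8.84% higher and 2.66% lower at day 4). At an unadjusted p under 0.05, 2 were higher and 2 lower (11.4%), against 27.9% of all genes (16% higher and 11.9% lower). The median was -0.04 (all genes -0.05), single genes lay between -0.41 and 0.27, and for 29 of 35 genes (82.9%) the 95% interval lay within 0.5 log2 units of zero, against 35.3% of all genes and 47.1% of the brightest 25%. Over the same days the 10 osteoblast markers all rose, with a median of 2.47.

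The smallest adjusted p belonged to Cox5b, a peripheral subunit of complex IV that binds zinc. Cox5b had 8.76, 9.14, 9.13 and 8.76 on AT-I day 2 and 8.47, 8.71, 8.44 and 8.65 on AT-I day 4. All day 4 values were below all day 2 values, by a small margin, and the difference was -0.38 ± 0.12 (1.30-fold, adjusted p = 0.0533). On AT-II, Cox5b had 9.10, 8.80, 9.01 and 8.87 at day 2 and 8.51, 8.62, 8.64 and 8.70 at day 4, again without overlap, with -0.34 ± 0.13 (adjusted p = 0.234). The AT-I value passed under 10 of 26 other settings, with adjusted p from 0.0117 to 0.163. It passed with all 16 arrays (adjusted p = 0.0446, 13.1% of all genes called), with each array centred on its median (-0.54, adjusted p = 0.0121, 14.5% called) and without AT-I day 2 replicate 1 or replicate 4.

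Uqcrc1 had 9.74, 10.08, 9.84 and 9.66 on AT-I day 2 and 9.18, 9.58, 9.32 and 9.61 on AT-I day 4. Its day 4 values were all lower, and the difference was -0.41 ± 0.14 (1.33-fold, adjusted p = 0.0672). It passed under 2 of 26 other settings, with adjusted p from 0.0208 to 0.172. These were centring (-0.57, adjusted p = 0.0208, 14.5% of all genes called) and another quantile normalisation (-0.45, adjusted p = 0.0308, 10.8% called). On AT-II, Uqcrc1 had 10.06, 9.79, 9.88 and 9.75 at day 2 and 9.33, 9.76, 9.59 and 9.61 at day 4, where replicate 2 of day 4 overlapped the day 2 range, and the difference was -0.31 ± 0.15 (adjusted p = 0.403). The 2 genes higher at day 4 on AT-I at an unadjusted limma p under 0.05 were assembly factors of complex IV. Cox15 had 8.01, 8.14, 8.06 and 8.17 at day 2 and 8.42, 8.43, 8.33 and 8.27 at day 4, without overlap (0.27 ± 0.12, adjusted p = 0.173), and Sco1 had 0.27 ± 0.13 (adjusted p = 0.167) with overlap. Groups without overlap numbered 1 higher and 2 lower of 35, against 15.3% of all genes (11.3% higher and 4.01% lower).

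The AT-I time course was then read by complex, where Uqcrc1 of complex III and Cox5b of complex IV, given above, had the lowest estimates. Complex I subunits had a median of -0.04, with Ndufb8 lowest (-0.26 ± 0.15), Ndufa12 next (-0.24 ± 0.12, adjusted p = 0.194), and Ndufa5 and Ndufs1 highest (0.21 ± 0.14 and 0.20 ± 0.10). Complex II subunits lay between -0.12 and 0.06. The 4 complex IV subunits were all below zero, with Cox4i1 at -0.21 ± 0.14, Cox5a at -0.13 and Cox7a2 at -0.12. Array rows of Cox7a2 and Cox5a may also read near-identical copies, so their values are uncertain. Other rows of these genes had -0.11 (Cox7a2) and -0.12 (Cox5a), and a dim Cox7a2 row (mean 6.19) had -0.27. Between the surfaces at day 2 that dim row had 0.41, against 0.18 in the row used. Atp5f1b had 0.01 ± 0.11.

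On AT-II, limma likewise called 0 of 35, against 3.33% of all genes (3.13% higher and 0.203% lower). At an unadjusted p under 0.05, 0 were higher and 3 lower (8.57%), against 13% of all genes (8.18% higher and 4.8% lower). The median was -0.11 (all genes -0.05), 30 of the 35 genes had an estimate below zero, and single genes lay between -0.41 and 0.24. The 95% interval lay within 0.5 log2 units of zero for 23 of 35 genes (65.7%), against 40.7% of all genes and 49.2% of the brightest 25%. Groups without overlap numbered 8 of 35 (22.9%), all lower at day 4, against 16.4% of all genes (7.63% lower and 8.74% higher), and 21.3% in either direction in the brightest 25%. They were Ndufa8, Ndufa9, Ndufa12 and Ndufb8 of complex I, Uqcrc2 of complex III, Cox5b of complex IV, and the copper chaperones Cox17 and Sco1.

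Sco1 again had the smallest p, going from 7.13, 7.23, 7.39 and 7.11 at day 2 to 6.72, 6.63, 6.85 and 6.87 at day 4 (-0.41 ± 0.14, adjusted p = 0.144). It passed under 5 of 26 other settings, with all 16 arrays (-0.44, adjusted p = 0.0484), after centring (-0.52), after another quantile normalisation (-0.46), with array weights (-0.44) and with the array spread as a covariate (-0.43). The share of all genes called in these fits was 4.92%, 2.94%, 2.8%, 7.12% and 4.71%. Ndufa12, an accessory subunit of complex I, had 9.83, 9.66, 9.60 and 9.82 at day 2 and 9.27, 9.63, 9.46 and 9.49 at day 4. Its single arrays overlapped, the groups with the day 2 pair averaged just missed each other, and the difference was -0.30 ± 0.13 (adjusted p = 0.314). Uqcrfs1 had -0.30 ± 0.17, Sdhd -0.28 ± 0.16, Ndufb8 -0.26 ± 0.17 and Ndufa9 -0.25 ± 0.13. Ndufa5 was the highest, at 0.24 ± 0.15 (adjusted p = 0.555). On this surface 9 of 10 osteoblast markers rose, with a median of 2.24, and 5 of 10 without AT-II day 2 replicate 1.

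Signs of the estimates over time were counted across the surfaces without a test. For 18 of the 35 genes both estimates were below zero, for 3 both were above, and for 14 they were opposite. Cox5b, Uqcrc1, Ndufa12 and Ndufb8 were below zero on both surfaces, and Ndufa5, Ndufs7, an iron-sulphur subunit of complex I, and Sdhb, that of complex II, were above zero on both.

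**Figure D3:**
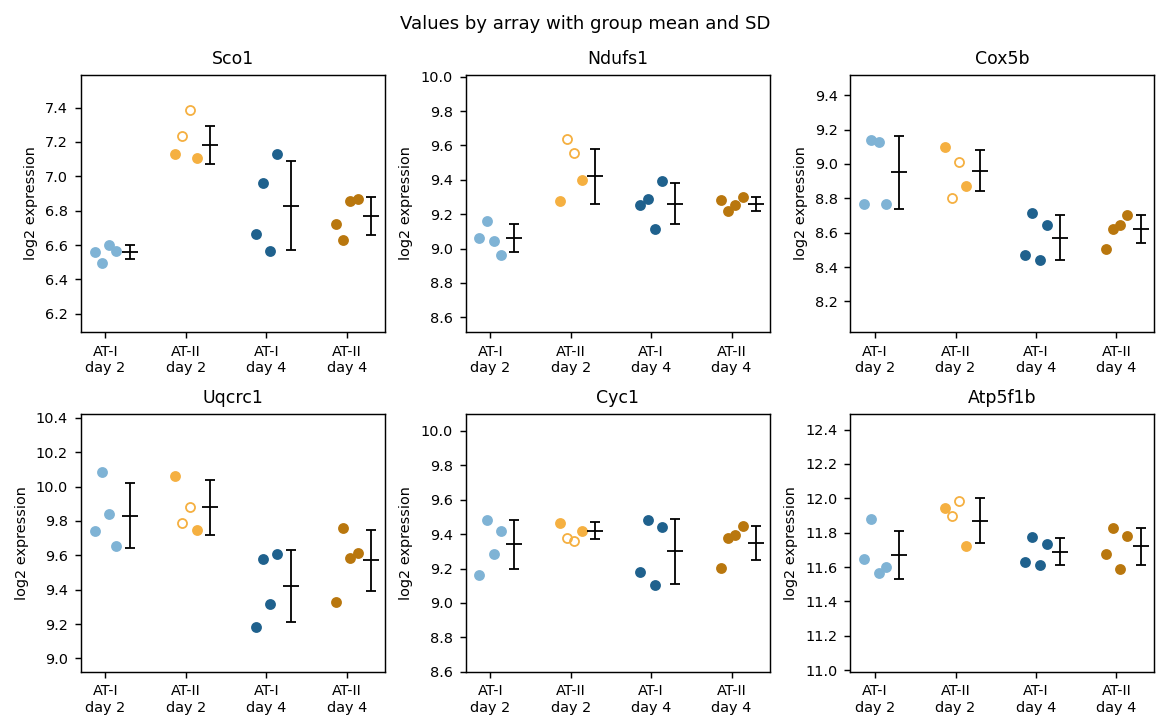
Log2 expression of 6 respiratory chain genes by array (points) and group, with group mean and SD beside them; open points are the AT-II day 2 pair that was averaged before the mean and SD were taken. Sco1 values of the surfaces are apart at day 2 and overlap at day 4, Cox5b is lower at day 4 on both surfaces, and Cyc1 and Atp5f1b show overlapping groups.

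An interaction test (day 4 minus day 2 on AT-I, less the same on AT-II) asks whether time acted differently on each surface. limma called 0 of 35 genes and 0% of all genes, and at an unadjusted p under 0.05 there were 2 higher and 0 lower, 5.71% against 4.1% of all genes (2.55% higher and 1.55% lower). The median was 0.05 (all genes 0.03). Sco1 had 0.69 ± 0.18, with a 95% interval from 0.29 to 1.08, and ranked 6 of 17245 genes. Its p in limma was 0.002 before and 0.924 after Benjamini-Hochberg adjustment. Under 27 other settings its difference was 0.56 to 0.77 and its adjusted p 0.385 to 1. Ndufs1 had 0.36 ± 0.15, and Uqcrc2, Cox15 and Ndufaf1 had 0.29 ± 0.18, 0.29 ± 0.18 and 0.35 ± 0.26. Here 16 of 35 intervals (45.7%) lay within 0.5 log2 units of zero, so for the other genes a difference of that size still lay within the interval.

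The rest of the respiratory chain was read from a list of 110 further genes, of which 92 were measured. Between the surfaces 0 of 92 passed at either day, and the medians were -0.07 at day 2 and -0.02 at day 4. On AT-I, 2 of 92 rose from day 2 to day 4 and 0 fell, against 8.84% of all genes called higher and 2.66% lower. The 2 were Atpaf2, an assembly factor of ATP synthase (0.40 ± 0.11, adjusted p = 0.0286), and Ndufaf2, an assembly factor of complex I (0.53 ± 0.15, adjusted p = 0.0322). Ndufaf2 was dim, at 5.30 to 6.37 over the AT-I arrays. Atpaf2 passed under 15 and Ndufaf2 under 19 of 26 other settings. Neither passed with each array centred (0.24 and 0.37) or with only the AT-I groups fitted. Both calls were also lost when replicate 3 or 4 of AT-I day 2, or replicate 2 or 4 of AT-I day 4, was left out. On AT-II 0 of 92 passed.

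Enzymes that feed the chain had low estimates on AT-I at day 2, and 0 passed the test. All 13 measured genes of the citric acid cycle and pyruvate dehydrogenase had estimates below zero there, with a median of -0.28, beside medians of -0.29 and -0.23 for all genes in the upper classes of level. On AT-I, Sucla2, the ATP-forming subunit of succinyl-CoA ligase, rose by 0.58 ± 0.12 (adjusted p = 0.00596) and Dld, the shared dehydrogenase subunit of the pyruvate and oxoglutarate complexes, by 0.54 ± 0.13 (adjusted p = 0.0121), and 0 passed on AT-II. Sucla2 passed under all 26 and Dld under 24 of 26 other settings. Of all genes, 8.84% were called higher and 2.66% lower over time on AT-I. Among 67 measured genes of the mitochondrial ribosome, 1 fell on AT-I (Mrpl22, -0.41 ± 0.12, adjusted p = 0.0428), a call kept under 12 of 26 other settings. Among 24 genes of protein import and cristae, Timm17b fell (-0.57 ± 0.17) and Tomm70 rose (0.45 ± 0.14) on AT-I, kept under 14 and 9 of 26. Among 15 regulators of mitochondrial biogenesis 0 passed in any comparison, and the smallest p between the surfaces at day 2 was that of Tfb2m, a mitochondrial transcription factor (-0.67 ± 0.20, adjusted p = 0.128).

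Of 19 measured genes of glycolysis, the other route to ATP, 5 fell and 0 rose over time on AT-I, and the median of the list was -0.36. Tpi1, triosephosphate isomerase, fell by 0.71 ± 0.17 on the log2 scale (adjusted p = 0.0152), Pfkfb3, which makes the activator of phosphofructokinase, by 0.67 ± 0.15 (adjusted p = 0.00917), Pfkl, the liver phosphofructokinase, by 0.60 ± 0.17, Gpi, glucose-6-phosphate isomerase, by 0.43 ± 0.11, and Slc16a3, a lactate exporter, by 1.12 ± 0.31. That is 5 of 19 against 2.66% of all genes called lower. The count was 0 with the array spread as a covariate (Tpi1 -0.45, adjusted p = 0.105; Pfkfb3 -0.50, adjusted p = 0.0651), 1 when only the AT-I groups were fitted and 9 after centring. Leaving out replicate 1 of AT-I day 2 gave 2. Of the AT-I day 4 samples, leaving out replicate 1 or 4 gave 1 and leaving out replicate 3 gave 10. On AT-II 0 of 19 passed, with a median of -0.35, and 0 of 19 passed the interaction test. Neutrophil markers, of a glycolytic cell, had medians of -0.43 and -0.41 on AT-I and AT-II with 1 of 8 fallen on AT-I and 0 on AT-II, and their part in the glycolytic values was not tested.

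In 3 further lists (outer membrane, uncoupling and superoxide, hypoxia), only Tspo, Fis1 and Sod1 were called lower at day 4 on both surfaces. The share of all genes called lower was 2.66% on AT-I and 0.203% on AT-II. Of 8 genes of the outer membrane and its carriers, Tspo, a cholesterol-binding protein of the outer membrane, fell by 1.18 on AT-I and 0.91 on AT-II, and Fis1, a fission protein, fell by 0.70 and 0.85. On AT-II both calls were lost without AT-II day 2 replicate 1 (Tspo -0.76, adjusted p = 0.0786; Fis1 -0.91, adjusted p = 0.0605), and they passed under 25 and 22 of 26 settings. Of 7 uncoupling and superoxide genes, Sod1, Sod2 and Ucp3 fell on AT-I (-0.36, -0.92 and -0.42) and Sod1 on AT-II (-0.49). These calls were frail. On AT-I, Sod1 passed under 12, Sod2 under 11 and Ucp3 under 19 of 26 other settings. Sod1 passed under 18 of 26 on AT-II. Ucp3 was dim, at 5.22 to 5.98 over the AT-I arrays, and 5.3 was the upper limit of the dimmest 25% of genes. Sod2 had -0.56 (adjusted p = 0.0853) without AT-I day 2 replicate 1, and 0 of 7 passed on AT-I when replicate 3 of the day 2 group, or replicate 2 or 4 of the day 4 group, was left out, or with only the AT-I groups fitted. Of 13 hypoxia genes, Egln3, an oxygen-sensing hydroxylase, fell on AT-I (-1.43), a call lost only with the array spread as a covariate among 26 settings, and 0 passed on AT-II. The 13 mitochondrially encoded genes were not analysed here.

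**Figure D4:**
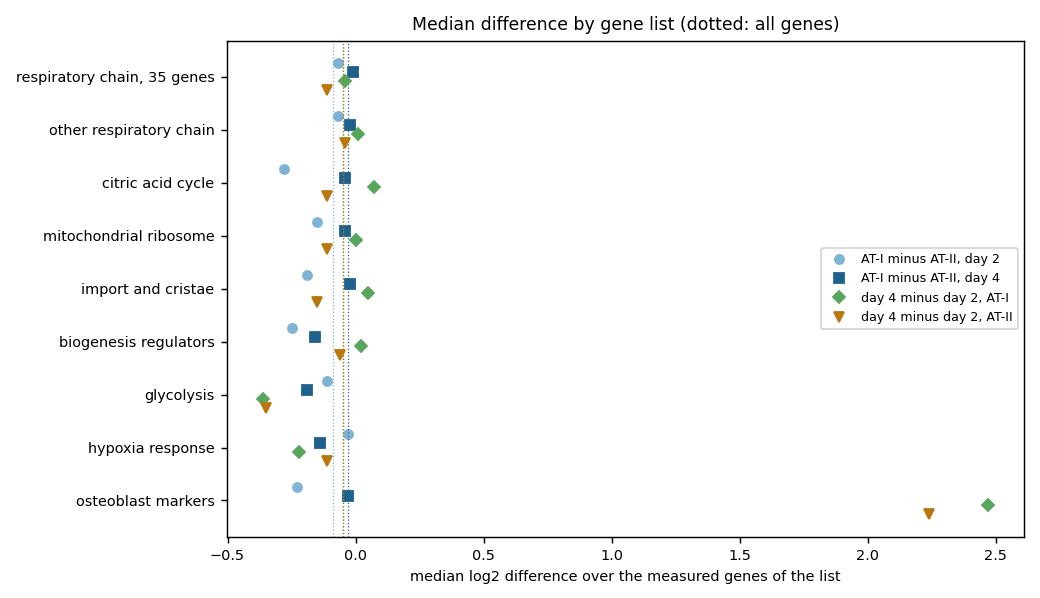
Median log2 difference of each gene list (rows) in 4 comparisons (symbols), with the medians of all genes as dotted lines. The 35 respiratory chain genes lie between -0.11 and -0.01 in all 4 comparisons, glycolysis lies at -0.36 and -0.35 over time, and osteoblast markers at 2.47 and 2.24.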

How the data were processed

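Gene expression was read from 16 arrays, 4 per group. The authors deposited log2 expression values after RMA, a background correction, quantile normalisation and probe summary. The program, Affymetrix Expression Console, is named in the submitters' processing notes. No version or build is given in the sources used here. That the log is base 2 is taken from RMA. Array rows were named through the platform annotation. The 18644 rows naming 1 gene were used, and for 879 genes with several rows the row with the highest mean was taken.

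limma 3.58.1 in R 4.3.3 (lmFit on 4 group means, eBayes, two-sided, Benjamini-Hochberg over 17245 genes, adjusted p under 0.05) tested 15 samples with 11 residual and 4.44 prior degrees of freedom. The number of arrays limits the precision. The 28 alternatives covered all 16 arrays, scaling, filters, array weights, replicate blocks and leaving out each sample.

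The text names, in each comparison, members among the 10 with the smallest p and the member with the smallest p of each complex. Of the other lists it names up to 3 genes with the smallest p per comparison. Other names, and those beyond 3 called glycolytic genes, were chosen after their values were seen. The members and lists were chosen with earlier results of these data known. Promoter windows are RefSeq's, on GRCr8.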

Additional observations from a re-analysis of the deposited data

Results flagged for a closer look

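In 4 of 105 combinations of a gene and a group of 4 arrays, the outermost array stood apart from the rest by Dixon's 95% criterion, which chance meets in about 1 in 20 groups. Ndufb6, a complex I subunit, had 10.75 in 1 array, replicate 4 of AT-I day 4, where the others had 10.48 to 10.52. Uqcrc2, a core protein of complex III, had 10.35 in the same array, against 9.90 to 9.94. Sdha, the flavoprotein of complex II, had 9.42 in replicate 2 of AT-I day 2, where the others had 8.90 to 8.98. Cox4i1, of complex IV, had 10.84 in AT-II day 4 replicate 1, against 11.08 to 11.11. Over all 35 genes, the first of these arrays had the highest value of its group for 23, the array of Sdha the highest for 18 and that of Cox4i1 the lowest for 17.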

How the results depend on the processing

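Counting the pair of AT-II day 2 arrays separately changed the calls between the surfaces at day 2: 0 of 35 genes with the pair averaged, and 2 (Sco1 and Ndufs1, both lower on AT-I) with all 16 arrays. Array weights gave 4, a replicate block on all 16 arrays 3 and the block as a random effect 4. Of all genes, 12.7% were called with all 16 arrays, and 21.5%, 22.2% and 27.3% in these other fits, in that order. The range without single samples was 0 to 1, where 1 was Sco1 without AT-I day 2 replicate 2 (4.12% of all genes called). With a replicate block and AT-I day 2 replicates 2 and 3 averaged as well the count was 0. Over time on AT-I the count was 3 after centring and 2 after quantile normalisation. It was 1 (Cox5b) with all 16 arrays, without the dimmest 25% of genes, with trend and robust eBayes, and with the spread covariate. The random block and leaving out both day 2 samples numbered 1 also gave 1 (Cox5b). Without single samples the count was 0 to 1. In the AT-I fits that called a gene of the list, 7.62% to 15.8% of all genes tested were called. On AT-II the count was 1 (Sco1) with all 16 arrays, centring, quantile normalisation, array weights and the spread covariate. Of all genes, 2.8% to 7.12% were called in these AT-II fits. Every called gene of the list was lower. Between the surfaces at day 4 and for the difference between the time courses, the count was 0 in all settings run. With the spread covariate the day 2 difference reversed for Ndufaf1 (0.06) and Sdha (0.11), and the day 4 difference for Sdha (0.04). Cox11 at day 2 reversed after quantile normalisation (0.08) and Cox5a at day 4 after centring (0.01). The causes were not tested. Centring moved the median of all genes on AT-I over time from -0.05 to -0.21. Whether replicate numbers pair the arrays stayed unclear. Deviations of same-numbered arrays of the surfaces correlated at -0.26 to 0.64 at day 2 and -0.34 to 0.47 at day 4. The own number was best for 1 of 4 at day 2 and 3 of 4 at day 4. For AT-I day 2 replicate 2 the own number gave 0.51 and number 3, of the averaged pair, 0.53. Some arrays of different surfaces were close, such as AT-I day 4 replicate 2 and AT-II day 4 replicate 4 (r = 0.9938). A shared rat was not tested.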
